A study of Mus musculus with 9 samples.

Results

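The synaptic vesicle release machinery was described here through 44 listed genes for vesicle fusion and the active zone, chosen by name for what their proteins do. They comprised 13 synaptotagmins, 4 syntaxins, 5 VAMPs, 2 SNAP proteins, 3 synapsins, 5 other vesicle proteins, 7 active zone proteins, 2 complexins, and 3 genes for NSF and its attachment proteins. Transcripts of 43 of the 44 genes were matched in the deposited counts, and all 43 were among the 15267 protein-coding genes tested, out of 18559 with a count. No row was matched to *Syt5*, which was not analysed here.

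The RIP-seq asked which mRNAs accompany cytoplasmic CELF2, an RNA-binding protein that shuttles between the nucleus and the cytoplasm. An antibody pulls the protein down from a lysate, and the RNA that comes with it is sequenced. Cortices were taken at postnatal day 0 from *Celf2* KI mice, which carry the p.R493H change on 1 allele, and the cytoplasmic fraction was divided into CELF2-KI RIP (rabbit anti-CELF2, 10 µg), IgG RIP (normal rabbit IgG, 10 µg) and input, with 3 libraries each. Both pull-downs lasted 3 hours, and input was set aside before the beads and antibodies were added. All 9 libraries shared the heterozygous genotype, so no comparison set the changed protein against the wild-type one, and the anti-CELF2 antibody was not described as telling them apart. The labels call the 3 libraries of a condition biological replicates, without saying how many animals each holds, and list neurons, glia, microglia and endothelial cells as sources of the fraction.

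Neurons store transmitter in vesicles that dock and are primed at the active zone, a protein scaffold on the presynaptic membrane. Fusion is driven by SNARE proteins, with VAMPs on the vesicle and syntaxins and SNAP-25 on the plasma membrane, and is timed by synaptotagmins, most of which sense calcium, together with complexins. After fusion, NSF and the SNAP adaptors take the SNARE complexes apart for reuse, while synapsins hold the vesicle pool in reserve.

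Protein-coding genes received 13523190 to 16840230 counts in the CELF2-KI RIPs, 9347252 to 14965224 in the IgG RIPs and 55250725 to 78514665 in the inputs. Levels are given as CPM, the count scaled to a fixed total on the TMM-adjusted library size, which are not adjusted for transcript length and do not rank genes by abundance. Since CPM are shares of a library, they do not give the amount of an mRNA in a pull-down or in the cells. A gene was called higher or lower at an FDR under 0.01 with a change of at least 2-fold in edgeR's quasi-likelihood test. A log2 fold change written with ± carries its standard error (SE), derived from the fold change and the F statistic of that test. IgG RIP libraries 1 and 2 stood apart in that 43.5% and 41.5% of their counts lay in rows without a gene match, against 21.1% in IgG RIP 3, 11.6% to 12.6% in the CELF2-KI RIPs and 9.24% to 9.75% in the inputs. The 8 neuronal markers summed to 6465 to 7742 CPM in the CELF2-KI RIPs, 3747 to 4723 in the IgG RIPs and 4747 to 5165 in the inputs. Of the 8, 3 were called higher than both controls by the rule above, against 7.58% of all tested genes. All 8 had counts in every library. The 6 radial glia markers summed to 125 to 169, 303 to 348 and 367 to 385 CPM, and the 5 erythroid markers to 92.7 to 95.0, 366 to 584 and 877 to 1135 CPM, in the same order of conditions. Summed levels were 436 to 598, 242 to 300 and 327 to 340 CPM for 5 inhibitory neuron markers, 820 to 1254, 723 to 778 and 1027 to 1271 CPM for 6 markers of astrocytes and oligodendrocyte precursors, 93.4 to 127, 58.1 to 78.3 and 129 to 165 CPM for 6 of microglia, and 158 to 229, 147 to 325 and 198 to 309 CPM for 5 of endothelium. Also higher than both controls was 1 of the 5 inhibitory neuron markers. Lower than both were 2 of 6 radial glia, 2 of 5 tested microglia, 1 of 5 endothelial and 4 of 5 erythroid markers, against 9.54% of all tested genes. What part this spread in cell type markers has in the values of the vesicle release genes was not tested.

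Of the 43 vesicle release mRNAs, 21 were called higher and 2 lower in CELF2-KI RIP than in IgG RIP, where 13.4% of all tested genes were higher and 13.6% lower. Against input, 14 were higher and 2 lower, with 14.6% and 15.5% of all tested genes. Both controls were exceeded by 9 genes, 20.9% of the 43, against 7.58% of all tested genes. These were *Syt6*, *Syt7*, *Syt13*, *Vamp2*, *Vamp3*, *Vamp4*, *Syn2*, *Sv2a* and *Rims3*. Lower than both were *Syn1* and *Napa*, or 4.65% of the 43, against 9.54% of all tested genes. The call against both controls depended on the fold threshold and on the scaling between libraries. Shares of all tested genes are not given for the settings that follow, so their counts describe only the 43. At an FDR under 0.01 and any fold, 21 of the 43 were higher than both and 3 lower. Scaling by total counts in place of TMM gave 9 higher and 3 lower over IgG RIP and 2 higher and 3 lower over input, and TMM factors from coding and noncoding genes together gave 15 and 3 and then 4 and 3. Total counts left 0 of the 43 higher than both at the full threshold in edgeR's test (16 at an unadjusted p under 0.05). With DESeq2's size factors the number was 7, both in edgeR's test and in DESeq2's Wald test. Without IgG RIP 1 and 2, a choice made after seeing the data, 5 genes were higher than both and the same 2 were lower.

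Over IgG RIP the 43 genes had a median log2 fold change of 1.01, and over input one of 0.79, beside -0.06 and 0.19 for all tested genes. Under total counts the medians of all tested genes shifted by -0.37 and -0.46. The distance of the 43 from all genes, at 1.05 and 0.60, could hardly change, since a new scaling moves all genes nearly alike. It thus does not bear on the stability of the calls. Over IgG RIP, 33 of the 43 lay above 0, as did 48.0% of all tested genes, and over input 35 did, with 56.4% of all tested genes. The 3 CELF2-KI RIPs were all above the 6 controls for 25 of the 43 genes and all below them for 3, which held for 25.2% and 19.9% of all tested genes. Between the controls, IgG RIP was higher than input for 2 of the 43 (*Bsn* and *Unc13b*) and lower for 3 (*Vamp4*, *Vamp7* and *Snap29*), against 6.79% and 5.0% of all tested genes. The map of CPM by library shows the main contrast within the families, with most genes raised in the CELF2-KI RIP columns and *Syn1* and *Napa* far below both controls. It also shows the active zone genes mostly above input in both kinds of pull-down.

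**Figure D1:**
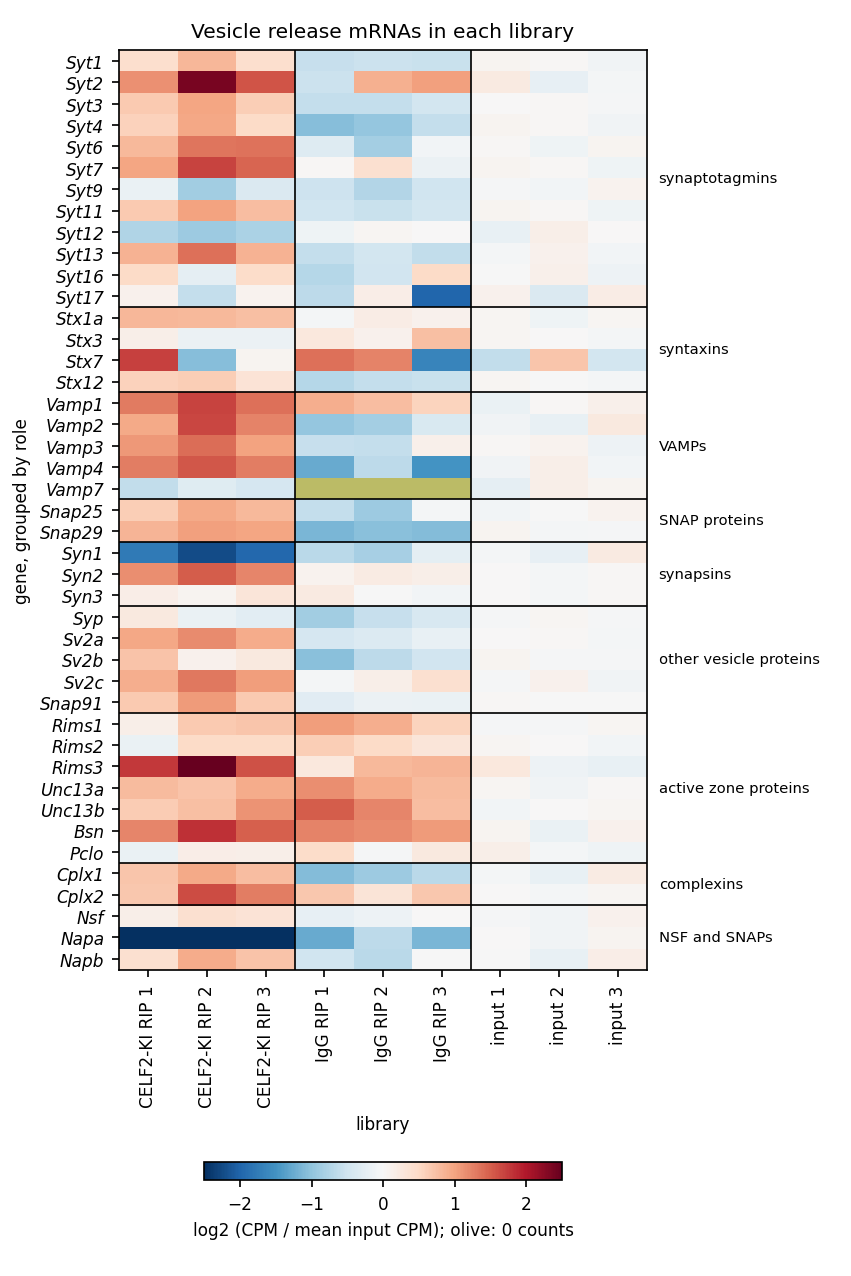
Level of 43 vesicle release mRNAs (rows, by role) in the 9 libraries (columns), as the log2 of CPM over the gene's mean CPM in the 3 input libraries, with colours cut at the ends of the scale. *Syn1* and *Napa* are lowest in the 3 CELF2-KI RIP columns, most active zone genes are above input in both CELF2-KI RIP and IgG RIP, and *Vamp7* has 0 counts in all 3 IgG RIP libraries.

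**Figure D2:**
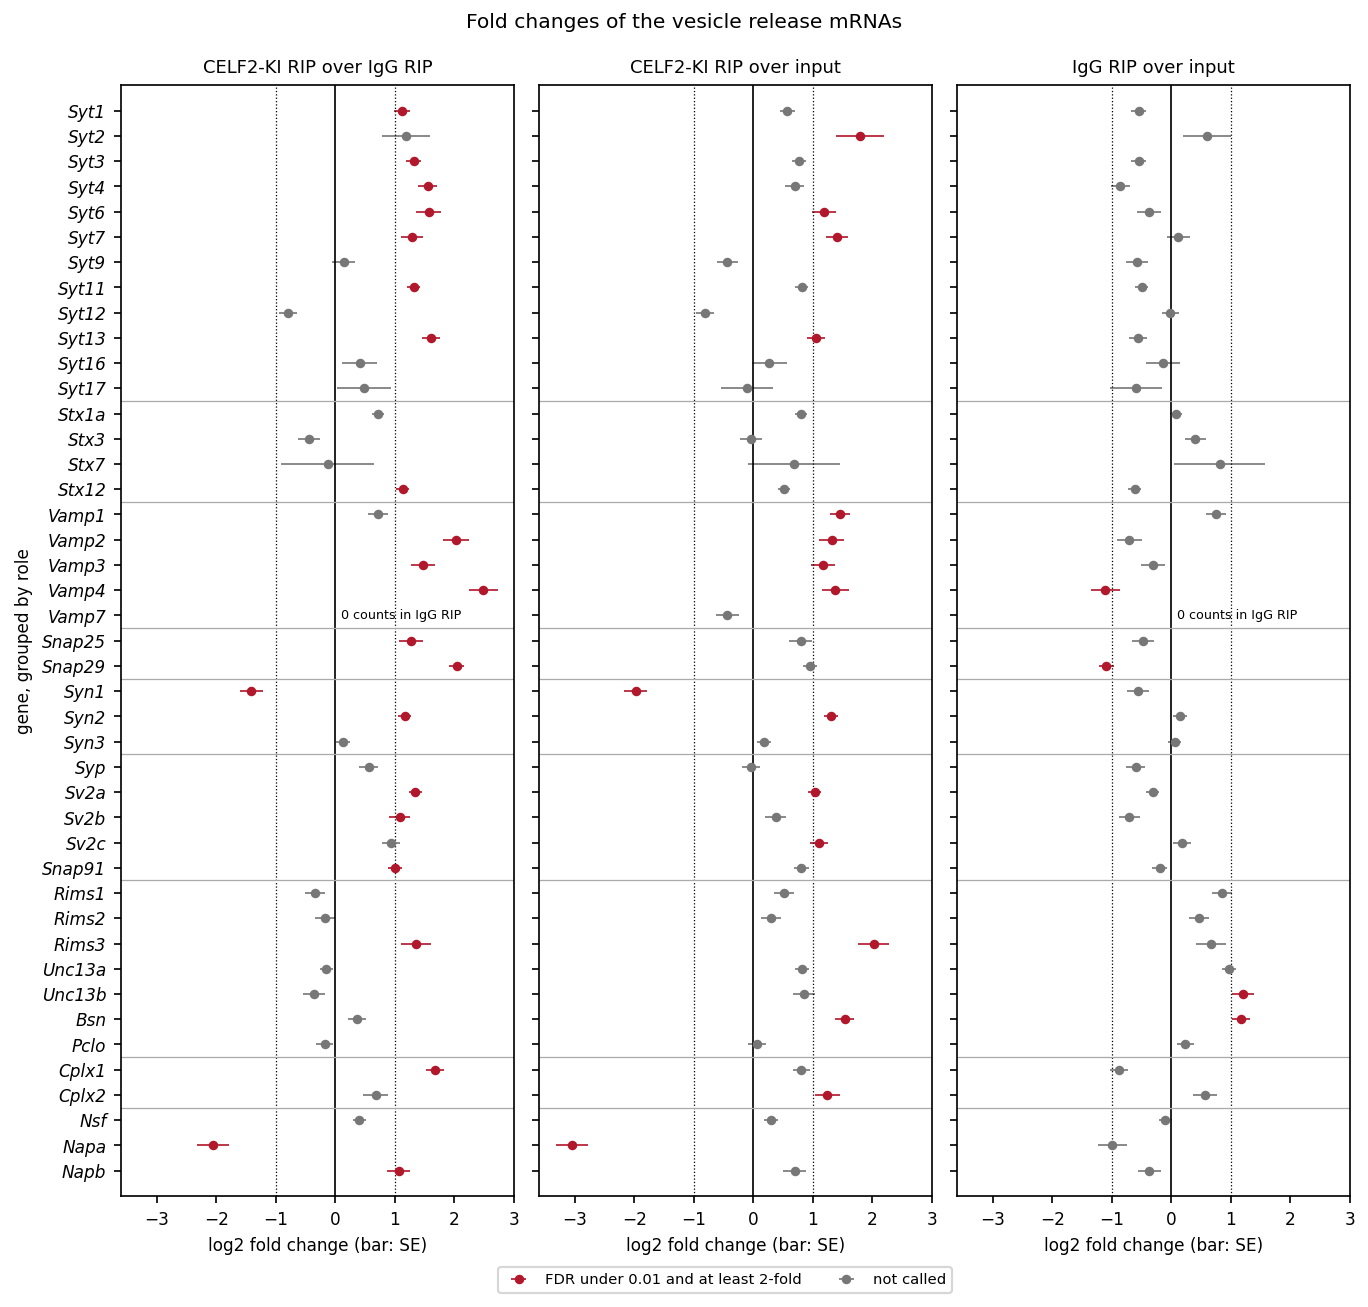
Log2 fold changes of 43 vesicle release genes with their SE in the 3 comparisons, with red for genes called at an FDR under 0.01 and at least 2-fold (dotted lines) in edgeR's quasi-likelihood test. Of the 43, 21 are called higher over IgG RIP and 14 over input. In the right panel all 7 active zone genes lie above 0, as do 49.8% of all tested genes. No fold is drawn where *Vamp7* had 0 counts.

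The synaptotagmins were mostly higher in CELF2-KI RIP. Over IgG RIP, 7 of the 12 measured were called higher and none lower, with a median of 1.24 on the log2 scale. Over input, 4 were higher and none lower, with a median of 0.73. Higher than both controls were 3 of the 12, all named below with their 9 values. *Syt7*, a high-affinity calcium sensor linked to asynchronous release, was at 167, 270.0 and 232 CPM in CELF2-KI RIPs 1, 2 and 3, 86.3, 112 and 76.3 in the IgG RIPs and 88.6, 86.0 and 78.1 in the inputs. The lowest CELF2-KI RIP library was thus above the highest control, and the controls overlapped each other. The log2 fold change was 1.29 ± 0.19 over IgG RIP (FDR = 0.000269) and 1.41 ± 0.19 over input (FDR = 0.00013). *Syt6*, a close relative of *Syt3*, was at 83.7, 121 and 123 CPM in the CELF2-KI RIPs, 38.2, 26.5 and 45.4 in the IgG RIPs and 48.4, 44.5 and 50.2 in the inputs. It rose by 1.57 ± 0.21 over IgG RIP and 1.19 ± 0.20 over input on the log2 scale (FDR = 0.000135 and 0.000583). Its CELF2-KI RIP libraries did not overlap the controls, and IgG RIP 3 reached into the range of input. Both calls of *Syt6* were lost when only curated RefSeq transcripts were counted and predicted models left out, at 1.26 over IgG RIP (FDR = 0.0731) and 1.61 over input (FDR = 0.0295) in edgeR's test. *Syt13*, whose protein lacks the residues that bind calcium, was at 119, 169.5 and 120.5 CPM in the CELF2-KI RIPs, 43.2, 47.7 and 42.7 in the IgG RIPs and 63.5, 70.7 and 62.5 in the inputs. All 3 conditions were apart, in the order CELF2-KI RIP, input, IgG RIP. The log2 fold change was 1.62 ± 0.15 over IgG RIP (FDR = 1.86e-05) and 1.06 ± 0.15 over input (FDR = 0.00016). The call against input was lost without CELF2-KI RIP 2, at 0.87. It was also lost with other scalings, such as DESeq2's size factors (0.92) and upper-quartile factors (0.82). In mm10, *Syt6* spans chr3:103575245-103645567, *Syt7* chr19:10388802-10453181 and *Syt13* chr2:92915101-92956051.

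Another 4 synaptotagmins, *Syt1*, *Syt3*, *Syt4* and *Syt11*, were called over IgG RIP and fell short of 2-fold over input. *Syt1*, the calcium sensor of fast release, was at 698, 935 and 702 CPM in the CELF2-KI RIPs, 353, 363 and 358 in the IgG RIPs and 547, 535 and 492 in the inputs, which gave log2 fold changes over IgG RIP and over input of 1.12 ± 0.13 and 0.57 ± 0.12. *Syt11*, a relative of *Syt4* that does not bind calcium, was at 914, 1153 and 983 CPM in the CELF2-KI RIPs, 409, 394 and 421 in the IgG RIPs and 604, 593 and 536 in the inputs, which gave 1.32 ± 0.11 and 0.82 ± 0.11. For both, the 3 conditions did not overlap. The call of *Syt1* over IgG RIP rested on predicted transcripts, since with curated transcripts alone the log2 fold change was 0.03 (FDR = 0.924 in edgeR's test). Without CELF2-KI RIP 2 the change of *Syt1* over IgG RIP was also under 2-fold, at 0.97. The predicted *Syt1* transcript XM_006513448.1 held 27.3% to 33.3% of the gene's counts in the CELF2-KI RIPs and was at 0 CPM in all inputs. *Syt4* was at 704, 922 and 655 CPM in the CELF2-KI RIPs, 226, 242 and 309 in the IgG RIPs and 494, 477 and 441 in the inputs, with log2 fold changes of 1.55 ± 0.16 and 0.69 ± 0.16. *Syt3* had 102, 128 and 99.3 CPM in the CELF2-KI RIPs, 42.9, 42.6 and 47.0 in the IgG RIPs and 65.5, 65.6 and 63.1 in the inputs, with 1.32 ± 0.12 and 0.77 ± 0.12. For these 4 genes the order of conditions was the same, and every IgG RIP library lay below every input. IgG RIP over input was between -0.50 (*Syt11*, FDR = 0.0057) and -0.86 (*Syt4*, FDR = 0.00229), under 2-fold. *Syt2*, a fast sensor used mainly in the hindbrain and spinal cord, was called against input alone. It was at 11.4, 27.0 and 15.4 CPM in the CELF2-KI RIPs, 3.57, 9.61 and 10.6 in the IgG RIPs and 6.06, 4.49 and 5.03 in the inputs, which gave 1.79 ± 0.40 over input (FDR = 0.00328) and 1.19 ± 0.41 over IgG RIP (FDR = 0.0308). IgG RIP 2 and 3 lay nearly as high as CELF2-KI RIP 1, and the spread within both pull-downs was wide. With curated transcripts alone the call of *Syt2* over input was lost (1.27, FDR = 0.0213 in edgeR's test). It was also lost in edgeR's test without CELF2-KI RIP 2 (1.37, FDR = 0.0179), input 2 (1.58, FDR = 0.0219) or input 3 (1.76, FDR = 0.0151). The study, at the same thresholds in its own fit, named *Syt2* among its targets against both controls.

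The other 4 synaptotagmins were called in no comparison. *Syt12*, which lacks calcium binding, had all 3 CELF2-KI RIP libraries below all 6 controls, with means of 8.13 ± 0.451, 14.1 ± 0.739 and 14.3 ± 1.61 CPM (SD, n = 3) in the CELF2-KI RIPs, IgG RIPs and inputs. Its log2 fold changes of -0.80 ± 0.15 and -0.81 ± 0.15 passed the FDR in edgeR's test (0.00126 and 0.000871) but not 2-fold. *Syt9*, *Syt16* and *Syt17* ranged from -0.44 (*Syt9* over input) to 0.48 (*Syt17* over IgG RIP), with FDRs between 0.0611 and 0.848. *Syt17* was between 1.51 and 6.79 CPM and *Syt16* between 29.8 and 68.7 CPM over the 9 libraries, and the conditions overlapped in both.

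VAMPs, the SNAREs of the vesicle membrane, held 3 of the 9 genes called higher than both controls, and their log2 fold changes had a median of 2.03 over IgG RIP and 1.32 over input. *Vamp2*, the main vesicle SNARE of forebrain synapses (chr11:69088528-69092381), was at 453, 742 and 555 CPM in the CELF2-KI RIPs, 119, 131 and 179.8 in the IgG RIPs and 221, 206 and 277 in the inputs. The lowest CELF2-KI RIP library was well clear of the highest control, and IgG RIP lay below input in every library. This came to 2.03 ± 0.22 on the log2 scale over IgG RIP (FDR = 3.65e-05) and 1.32 ± 0.21 over input (FDR = 0.000393). *Vamp3* or cellubrevin, a SNARE of recycling endosomes (chr4:151047305-151057953), was at 60.4, 75.0 and 57.2 CPM in the CELF2-KI RIPs, 19.1, 18.9 and 31.2 in the IgG RIPs and 29.3, 30.5 and 26.2 in the inputs. CELF2-KI RIP was apart from both controls, which overlapped through IgG RIP 3. Its log2 fold changes were 1.47 ± 0.21 (FDR = 0.000191) and 1.17 ± 0.20 (FDR = 0.000645). *Vamp4*, which acts between the Golgi and endosomes and on a separate vesicle pool (chr1:162570515-162599082), was at 12.7, 15.6 and 12.9 CPM in the CELF2-KI RIPs, 2.19, 3.37 and 1.86 in the IgG RIPs and 4.93, 5.85 and 5.03 in the inputs. No condition overlapped another. It differed by 2.49 ± 0.25 over IgG RIP (FDR = 2.53e-05) and 1.38 ± 0.23 over input (FDR = 0.000435), and was itself lower in IgG RIP than in input by -1.11 ± 0.24 (FDR = 0.00522). With curated transcripts alone this last call of *Vamp4* was lost (-0.97, FDR = 0.0380 in edgeR's test). The only row of *Vamp4* is itself curated, so its counts were unchanged there and the loss came from refitting. The same call was also lost without CELF2-KI RIP 3, IgG RIP 1, IgG RIP 3, input 1, input 2 or input 3.

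The remaining VAMPs were called against 1 control each. *Vamp1*, the counterpart of *Vamp2* in brainstem and spinal cord, was at 18.0, 23.7 and 19.0 CPM in the CELF2-KI RIPs, 13.7, 12.5 and 10.8 in the IgG RIPs and 6.55, 7.47 and 7.97 in the inputs. The conditions fell in the order CELF2-KI RIP, IgG RIP, input with no overlap, and the log2 fold change was 1.47 ± 0.17 over input (FDR = 4.82e-05) and 0.71 ± 0.17 over IgG RIP, short of 2-fold. *Vamp7*, a SNARE of late endosomes and neurite growth that resists tetanus toxin, was at 8.48, 10.5 and 9.73 CPM in the CELF2-KI RIPs and 11.1, 14.3 and 13.5 in the inputs, with 0 counts in each of the 3 IgG RIP libraries. At a floor of 3 counts per IgG RIP library (a mean of 0.233 CPM), it was at least 41.0-fold higher in CELF2-KI RIP than in IgG RIP, and at least 55.5-fold higher in input. CELF2-KI RIP and input themselves differed by -0.44 ± 0.19 (FDR = 0.0804), below the threshold, with all 3 CELF2-KI RIP libraries under all 3 inputs. In all, 23 of the 15267 tested genes had 0 counts in all 3 IgG RIP libraries, and the floor covers counting error only. Whether these 0 counts come from the assignment of reads was not tested, and the calls of *Vamp7* over IgG RIP and in IgG RIP over input rest on them. Placing *Vamp7* at its bound leaves the medians given here as they are, since the bound stays beyond them.

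Of the SNAP proteins, which each supply a pair of SNARE helices, both were called over IgG RIP and neither over input. *Snap25*, the neuronal form on the plasma membrane, was at 101, 126 and 115 CPM in the CELF2-KI RIPs, 43.4, 35.0 and 63.4 in the IgG RIPs and 62.7, 65.0 and 70.0 in the inputs. *Snap29*, a widely expressed form used in autophagosome fusion, was at 44.9, 50.7 and 49.3 CPM in the CELF2-KI RIPs, 11.3, 12.1 and 11.8 in the IgG RIPs and 26.4, 24.3 and 24.4 in the inputs. The replicates of *Snap29* were tight and its 3 conditions apart, whereas IgG RIP 3 of *Snap25* reached the input range. The log2 fold change of *Snap29* was 2.04 ± 0.12 over IgG RIP (FDR = 5.46e-06), 0.95 ± 0.12 over input and -1.09 ± 0.12 in IgG RIP over input (FDR = 0.000223). That of *Snap25* was 1.27 ± 0.20 over IgG RIP (FDR = 0.000344) and 0.79 ± 0.19 over input. With curated transcripts alone, the call of *Snap25* over IgG RIP was lost (0.57, FDR = 0.247 in edgeR's test), as was that of *Snap29* in IgG RIP over input, by falling under 2-fold (-0.97). The only row of *Snap29* is itself curated, so its counts were unchanged and its loss came from refitting.

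Among the syntaxins, 1 of 4 was called over IgG RIP and 0 over input. Over input, edgeR's test put *Stx1a* and *Stx12* under an FDR of 0.01 but at less than 2-fold. *Stx1a*, the main syntaxin of the presynaptic membrane, was at 137, 136 and 131 CPM in the CELF2-KI RIPs, 74.4, 87.6 and 83.6 in the IgG RIPs and 80.2, 72.1 and 79.6 in the inputs. CELF2-KI RIP was apart from all 6 controls, with log2 fold changes of 0.72 ± 0.10 (FDR = 0.000231) and 0.80 ± 0.10 (FDR = 9.72e-05). *Stx12*, a SNARE of recycling endosomes, was at 140.0, 143 and 118 CPM in the CELF2-KI RIPs, 57.2, 61.9 and 63.8 in the IgG RIPs and 96.3, 93.3 and 90.6 in the inputs, and reached 1.13 ± 0.11 over IgG RIP (FDR = 2.3e-05) and 0.52 ± 0.11 over input. *Stx12* was just under 2-fold over IgG RIP with curated transcripts alone, at 0.98. Its only row is itself curated, so its counts were unchanged there and the shift came from refitting. *Stx3* differed by -0.44 ± 0.19 over IgG RIP and -0.04 ± 0.19 over input (FDR = 0.0684 and 0.866). *Stx7*, a late endosomal syntaxin, varied within every condition, at 48.9, 7.08 and 15.6 CPM in the CELF2-KI RIPs, 38.5, 35.4 and 4.73 in the IgG RIPs and 9.76, 24.0 and 10.9 in the inputs. With SEs of 0.78 and 0.77, a difference in *Stx7* could not be resolved, and 91.6% of its counts were assigned to 1 predicted transcript.

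The synapsins, which tether vesicles to each other and to the cytoskeleton, split 3 ways. *Syn2* (chr6:115134902-115282626) was at 198, 252 and 206 CPM in the CELF2-KI RIPs, 93.3, 102 and 97.1 in the IgG RIPs and 88.5, 85.7 and 90.6 in the inputs. It was higher than both controls, by 1.17 ± 0.11 over IgG RIP (FDR = 2.38e-05) and 1.31 ± 0.11 over input (FDR = 1.06e-05), and no CELF2-KI RIP library came near a control. *Syn1* (chrX:20860511-20920918) was at 45.1, 32.5 and 39.7 CPM in the CELF2-KI RIPs, 95.9, 86.0 and 131 in the IgG RIPs and 148, 133 and 180.2 in the inputs. All 3 CELF2-KI RIP libraries lay below all 6 controls, and every IgG RIP library lay below every input. The log2 fold change of *Syn1* was -1.41 ± 0.19 over IgG RIP (FDR = 0.000151) and -1.98 ± 0.19 over input (FDR = 2e-05). *Syn3* was at 101 ± 8.58, 92.9 ± 10.0 and 89.5 ± 2.94 CPM (SD, n = 3) in the CELF2-KI RIPs, IgG RIPs and inputs, with log2 fold changes of 0.13 ± 0.11 and 0.18 ± 0.11 and CELF2-KI RIP libraries that overlapped those of IgG RIP.

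The other vesicle proteins were higher over IgG RIP in 3 of 5 and higher over input in 2 of 5, with medians of 1.01 and 0.81. *Sv2a*, a vesicle glycoprotein and the binding site of the antiseizure drug levetiracetam (chr3:96181227-96195183), was at 1004, 1168 and 974 CPM in the CELF2-KI RIPs, 382, 404 and 455 in the IgG RIPs and 517, 527 and 496 in the inputs. The 3 conditions were apart. It was called against both, at 1.34 ± 0.11 (FDR = 1.15e-05) and 1.03 ± 0.11 (FDR = 3.15e-05), and fell just under 2-fold over input without CELF2-KI RIP 2 (0.95) or input 2 (0.94). Other scalings also left *Sv2a* under 2-fold over input, such as DESeq2's size factors (0.89) and upper-quartile factors (0.79). Its relatives passed against 1 control each. *Sv2b* was at 236, 156 and 171 CPM in the CELF2-KI RIPs, 70.4, 91.9 and 103 in the IgG RIPs and 150.3, 141 and 141 in the inputs, and was called over IgG RIP, at 1.08 ± 0.18 (FDR = 0.000545). *Sv2c* was at 90.8, 121 and 99.0 CPM in the CELF2-KI RIPs, 46.4, 53.2 and 63.6 in the IgG RIPs and 47.5, 51.6 and 45.5 in the inputs, and was called over input, at 1.10 ± 0.15 (FDR = 0.000137; 0.98 without CELF2-KI RIP 2). Both had all 3 CELF2-KI RIP libraries above the controls, closely so for *Sv2b* over input. With DESeq2's size factors *Sv2c* was under 2-fold over input, at 0.96. *Snap91* or AP180, a clathrin adaptor that retrieves vesicle membrane, was at 298, 395 and 297 CPM in the CELF2-KI RIPs, 154, 170.1 and 169 in the IgG RIPs and 193, 188 and 187 in the inputs. Its call over IgG RIP, at 1.01 ± 0.12 (FDR = 8.97e-05), was at the 2-fold line and went under it with the replicate number as a block (0.997, FDR = 0.000334) and without CELF2-KI RIP 2 (0.86), IgG RIP 1 (0.96) or input 2 (0.90). *Syp*, the most used marker of synaptic vesicles, was at 664 ± 128, 451 ± 75.0 and 684 ± 21.0 CPM (SD, n = 3) and was called in no comparison, at 0.56 ± 0.16 over IgG RIP (FDR = 0.0119) and -0.04 ± 0.16 over input (FDR = 0.831).

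**Figure D3:**
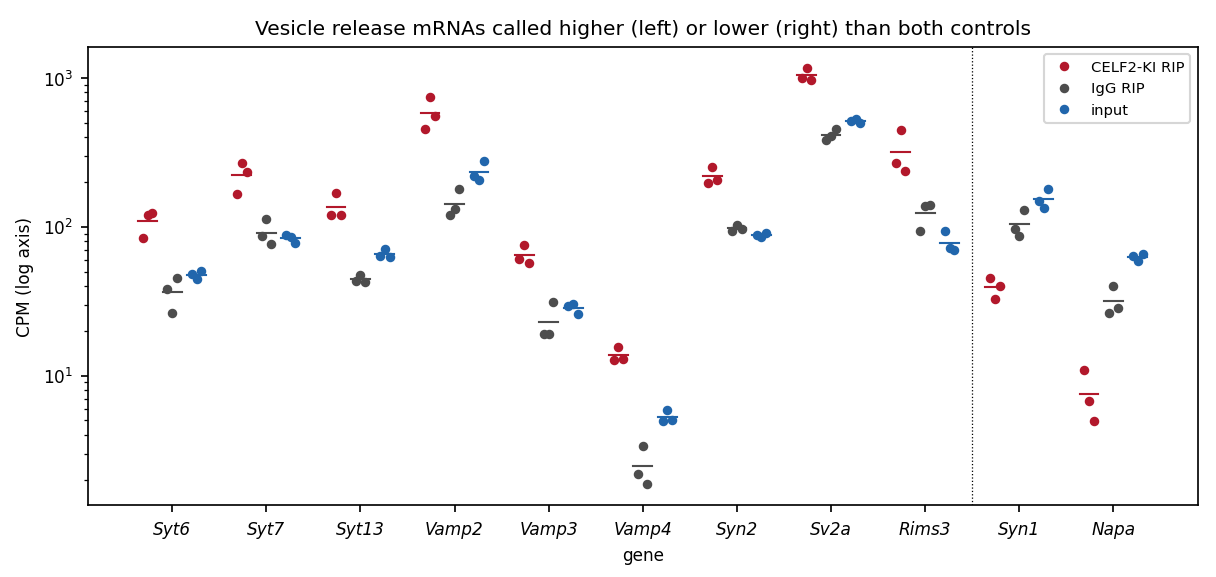
CPM (log axis) of the 11 vesicle release genes called against both controls, with a point for each of 3 libraries per condition and a line at their mean. In the 9 genes to the left of the dotted line every CELF2-KI RIP point lies above all 6 control points, and for *Syn1* and *Napa* every one lies below them.

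The active zone genes had higher mean levels in both kinds of pull-down than in input. All 7 were above 0 in IgG RIP over input, with a median log2 fold change of 0.85, and all 7 were above 0 in CELF2-KI RIP over input, with a median of 0.81. Of all tested genes, 49.8% and 56.4% were above 0 in these comparisons. Over IgG RIP the median was -0.18 and 2 of the 7 were above 0, against 48.0% of all tested genes. *Bsn* or bassoon, a very large scaffold protein, was at 1145, 1744 and 1391 CPM in the CELF2-KI RIPs, 1163, 1119 and 1031 in the IgG RIPs and 513, 436 and 527 in the inputs. Every pull-down library of either kind was above every input, and the 2 kinds overlapped. The log2 fold change was 1.54 ± 0.15 over input (FDR = 2.33e-05), 0.37 ± 0.15 over IgG RIP (FDR = 0.0604) and 1.17 ± 0.15 in IgG RIP over input (FDR = 0.000459). *Unc13b*, a priming factor of the Munc13 family, was likewise higher in IgG RIP than in input, at 1.20 ± 0.19 (FDR = 0.000947), and its relative *Unc13a* was at 0.96 ± 0.12 (FDR = 0.000347), under 2-fold. Over IgG RIP, *Unc13a*, *Unc13b*, *Rims1*, *Rims2* and *Pclo* lay between -0.35 (*Unc13b*) and -0.15 (*Unc13a*), with the lowest FDR at 0.11 (*Rims1*).

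The active zone genes also had a longer median span. Span is the length of the gene on the chromosome, introns included, and not that of the mRNA. The median span was 219 kb for the 7 active zone genes, 40.3 kb for the other 36 and 24.6 kb for all tested genes. Among all tested genes, the median log2 fold change of IgG RIP over input went from -0.43 in the tenth with the shortest span to 0.33 in the tenth with the longest. In IgG RIP over input, the members of longest and shortest span, *Rims1* (520 kb) and *Vamp2* (3.85 kb), were at 0.85 and -0.71. *Unc13b* (219 kb) was at 1.20, *Unc13a* (47.7 kb) at 0.96 and *Syt1* (513 kb) at -0.55. The part of span in the active zone values was not tested.

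*Rims3* was the 1 active zone gene called against both controls. It encodes a short RIM that lacks most of the scaffold domains of *Rims1* and *Rims2*, and lies at chr4:120854779-120896580. It was at 268, 449 and 238 CPM in the CELF2-KI RIPs, 93.9, 138 and 141 in the IgG RIPs and 93.5, 72.2 and 69.3 in the inputs. CELF2-KI RIP was apart from both controls, and the log2 fold change was 1.36 ± 0.25 over IgG RIP (FDR = 0.00109) and 2.02 ± 0.26 over input (FDR = 8.52e-05). These counts rested on 1 predicted transcript, which held 95.4% of them. With curated transcripts alone, the change over IgG RIP was -0.20 on the log2 scale (FDR = 0.735 in edgeR's test) and the call over input was lost as well (FDR = 0.750).

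Complexins bind the assembled SNARE complex and both clamp and promote fusion, and each of the 2 was called against a different control. *Cplx1* was at 115, 138 and 121 CPM in the CELF2-KI RIPs, 33.6, 38.1 and 44.7 in the IgG RIPs and 69.4, 62.8 and 81.8 in the inputs, with log2 fold changes of 1.68 ± 0.15 over IgG RIP (FDR = 1.49e-05) and 0.80 ± 0.14 over input. *Cplx2* was at 311, 603 and 470.1 CPM in the CELF2-KI RIPs, 310.3, 244 and 312 in the IgG RIPs and 196, 187 and 200.3 in the inputs, with 1.25 ± 0.21 over input (FDR = 0.00049) and 0.68 ± 0.21 over IgG RIP (FDR = 0.0174). IgG RIP lay below input for *Cplx1* and above it for *Cplx2*, and CELF2-KI RIP 1 of *Cplx2* was level with IgG RIP 1 and 3.

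The genes of SNARE recycling also divided, with 1 called lower than both controls and 1 called higher over IgG RIP. *Napa* encodes α-SNAP, which brings the ATPase NSF to spent SNARE complexes, and lies at chr7:16098202-16117982. It was at 11.0, 6.78 and 5.0 CPM in the CELF2-KI RIPs, 26.2, 40.0 and 28.5 in the IgG RIPs and 63.4, 59.3 and 65.5 in the inputs. The 3 conditions were far apart, with CELF2-KI RIP lowest. *Napa* stood at -2.05 ± 0.27 on the log2 scale over IgG RIP (FDR = 0.000118) and -3.05 ± 0.27 over input (FDR = 1.21e-05), the lowest values of the 43 genes in both comparisons. IgG RIP itself was under input, at -0.99 ± 0.25 (FDR = 0.0102). *Napb*, which encodes the brain form β-SNAP, was at 63.1, 90.0 and 78.4 CPM in the CELF2-KI RIPs, 33.6, 29.7 and 47.2 in the IgG RIPs and 47.6, 41.9 and 53.4 in the inputs. All its CELF2-KI RIP libraries were above the controls, with log2 fold changes of 1.07 ± 0.20 over IgG RIP (FDR = 0.00109) and 0.70 ± 0.19 over input (FDR = 0.0101). *Napb* was under 2-fold over IgG RIP with curated transcripts alone, at 0.92. Its only row is itself curated, so its counts were unchanged there and the shift came from refitting. With DESeq2's size factors *Napb* was also under 2-fold over IgG RIP, at 0.99. The same held without CELF2-KI RIP 2 (0.94), IgG RIP 1 (0.996), IgG RIP 2 (0.94) or input 2 (0.96). *Nsf* was at 131, 157 and 150.0 CPM in the CELF2-KI RIPs, 104, 108 and 120.0 in the IgG RIPs and 117, 112 and 128 in the inputs. The CELF2-KI RIPs again lay above all controls, by a small distance of 0.40 ± 0.11 and 0.30 ± 0.11 on the log2 scale, and no call was made.

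Ratios of related genes within a library do not depend on the scaling between libraries, so 21 pairs of family members were compared as log2 ratios, with 0.5 CPM added to each. The 3 CELF2-KI RIP ratios lay outside the range of the 6 control ratios in 8 pairs, which is the most extreme order this design allows (p = 0.0238 in an exact two-sided permutation test of 3 against 6, adjusted p = 0.0625 over the 21 pairs). With 9 pairs under an unadjusted exact p of 0.05, 0 pairs passed an adjusted p of 0.05, which at this number of libraries needs more pairs to be fully separated. How often pairs of other genes separate was not computed, so the 8 pairs are a description only. Single genes had all CELF2-KI RIPs above the 6 controls in 25.2% of all tested genes and below them in 19.9%. The test took IgG RIP and input as 1 group, although their ratios could differ, as for *Cplx1* to *Cplx2* (means of -2.88 and -1.45). The ratio of *Syn1* to *Syn2* was -2.12, -2.94 and -2.36 in the 3 CELF2-KI RIPs, 0.04, -0.25 and 0.42 in the IgG RIPs and 0.74, 0.64 and 0.99 in the inputs. The 3 conditions did not overlap, and CELF2-KI RIP differed from the controls by a mean of -2.90, in favour of *Syn2*. The ratio of *Napa* to *Napb* was -2.47, -3.64 and -3.84 in the CELF2-KI RIPs, -0.35, 0.42 and -0.72 in the IgG RIPs and 0.41, 0.50 and 0.29 in the inputs, a mean difference of -3.41.

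The other pairs with separated ratios showed smaller shifts. *Syn1* to *Syn3* moved by -1.83, and *Rims1* to *Rims3*, which carries the limit of the *Rims3* transcript, by -1.57. In the opposite direction, *Syt7* to *Syt9* moved by 1.49, *Stx1a* to *Stx3* by 0.99 and *Bsn* to *Pclo* by 0.99. *Syt1* to *Syt11*, which carries the limit of the *Syt1* transcripts, moved by -0.23. Among the 13 pairs without separation were *Vamp1* to *Vamp2*, *Sv2a* to *Sv2b*, *Unc13a* to *Unc13b* and *Cplx1* to *Cplx2*.

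**Figure D4:**
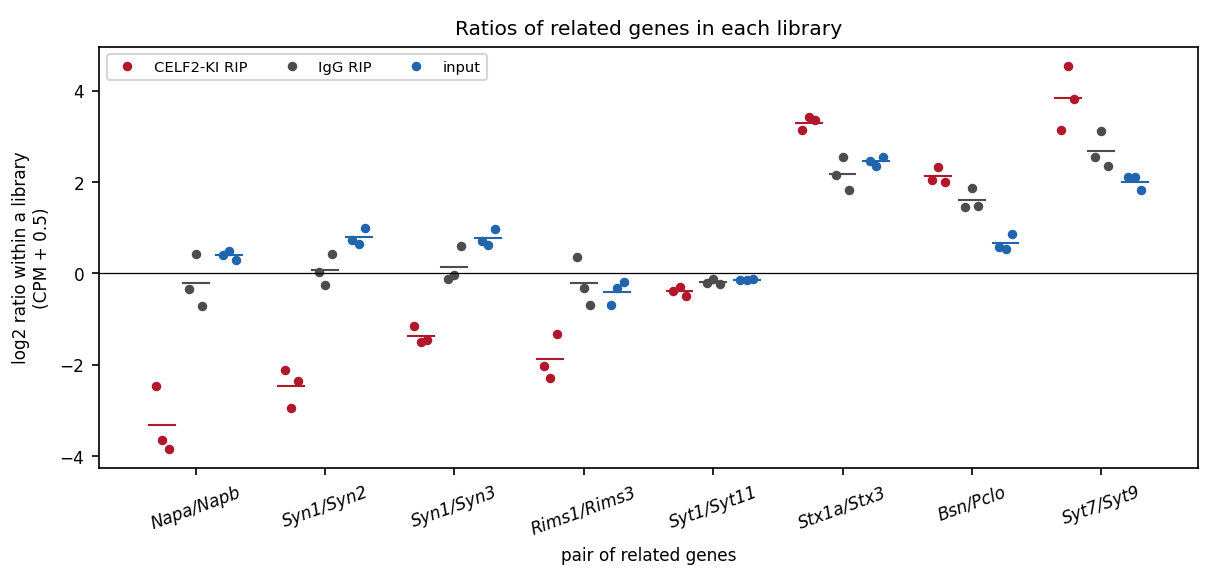
Log2 ratios of related genes within each library (y axis, from CPM plus 0.5) for the 8 pairs whose 3 CELF2-KI RIP points lie outside the 6 control points, with a line at each condition's mean. *Napa* to *Napb* and *Syn1* to *Syn2* show the widest gaps, with mean differences of -3.41 and -2.90.

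The counts were deposited per transcript, and 198 rows belonged to the 43 genes, of which 177 had a count and 146 passed the same filter. The fit on 39137 transcript rows called 1 of the 146 higher than both controls and 2 lower, where 0.496% and 2.21% of all rows were. The higher row was the *Syn2* transcript NM_001326560.1, which held 53.9% to 61.5% of the gene's counts in the CELF2-KI RIPs, 31.1% to 49.4% in the IgG RIPs and 30.8% to 42.2% in the inputs. It was higher by 1.44 on the log2 scale over IgG RIP (FDR = 0.0056) and 1.57 over input (FDR = 0.0043). The lower rows were the only *Napa* transcript, NM_025898.3, and a noncoding transcript model of *Unc13a*, XR_379044.2, with 7.31% of that gene's counts. Of the 2 *Syn1* transcripts, NM_001110780.1 was at -2.41 over IgG RIP (FDR = 0.0101) and -2.71 over input (FDR = 0.0073) on the log2 scale, and NM_013680.4 at -0.62 and -2.23 (FDR = 0.518 and 0.0323). For *Vamp2*, *Vamp3*, *Vamp4*, *Syt13*, *Sv2a* and *Napa* a single row held all counts, so that no division between transcripts entered their values. The medians of all transcript rows were -0.20 over IgG RIP and -0.14 over input, lower than those of the gene fit, and estimated counts of overlapping transcripts are uncertain.

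To set the vesicle release genes beside genes of like count, all tested genes were put in 10 groups by mean CPM over the 9 libraries, pull-downs included, and 31 of the 43 were in the upper 3. All tested genes in the top group had medians of 0.61 over IgG RIP and 0.76 over input on the log2 scale, and the 12 vesicle release genes there had 1.06 and 0.81. In the next group the medians were 0.41 and 0.58 for all genes and 0.90 and 0.66 for 12 vesicle release genes. In the third they were 0.34 and 0.46, against 1.07 and 0.77 for 7 genes. Over IgG RIP the vesicle release genes were thus above genes of like CPM in each of these groups. Over input the distance was smaller in each, and slight in the top group and the next. Lower groups, numbered from the lowest CPM, held fewer members. In group 7 the medians were 0.04 and 0.20 for all genes and -0.29 and -0.94 for 2 vesicle release genes. In group 5 they were -0.20 and -0.07, against -0.15 and -0.24 for 4 genes. In groups 3, 4 and 6 the vesicle release genes were above all genes in both comparisons. CPM moved with the fold change across all genes, and its part in the values was not tested.

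**Figure D5:**
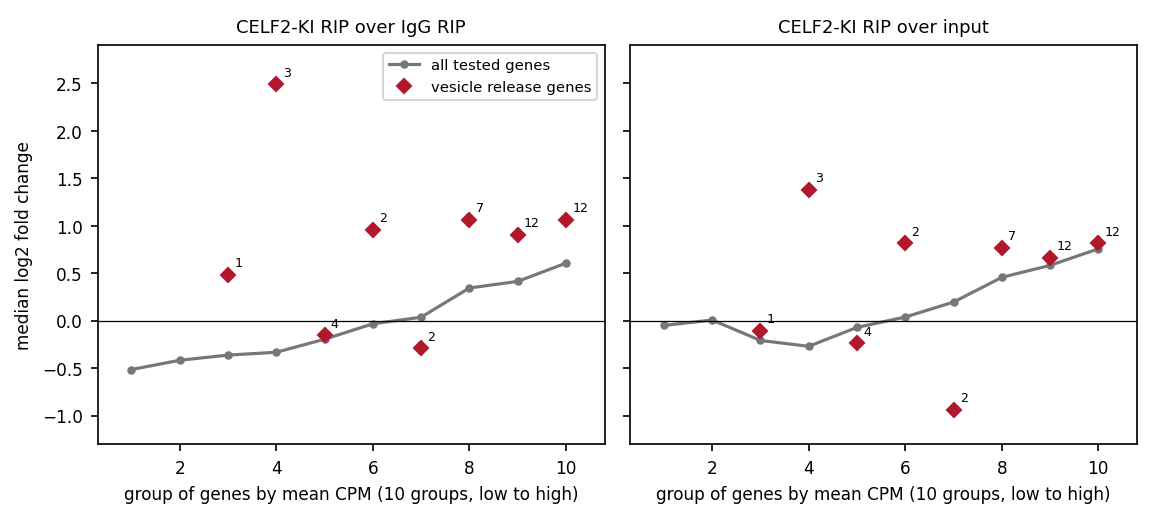
Median log2 fold change of all tested genes (line) and of the vesicle release genes (diamonds, with their number) in 10 groups of genes by mean CPM, from lowest to highest. In the top group the medians are 1.06 and 0.61 over IgG RIP, and 0.81 and 0.76 over input, for the vesicle release genes and for all genes.

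Other genes of the vesicle cycle, a list of 82 of which 81 were tested, had 16 called higher and 6 lower over IgG RIP, against 13.4% and 13.6% of all tested genes. Over input, 18 were higher and 5 lower, against 14.6% and 15.5% of all tested genes. Relative to both controls, 12 were higher and 3 lower, against 7.58% and 9.54%. Medians of the 81 were 0.29 over IgG RIP and 0.59 over input on the log2 scale, beside -0.06 and 0.19 for all tested genes. Median log2 fold changes over IgG RIP and over input were 0.93 and 0.65 for 16 genes of the vesicle membrane and tethering, 0.21 and 0.54 for 27 further fusion genes, 0.02 and 0.64 for 15 active zone genes, and 0.40 and 0.51 for 23 genes of endocytosis. The 15 active zone genes ranged from -1.70 (*Lin7b*) to 1.38 (*Lin7c*) over IgG RIP, and *Lin7b*, *Apba2* and *Rims4* were below 0 over input. Of the 12 genes higher than both, *Scamp1*, a vesicle membrane protein, was at 406 ± 142 CPM in the CELF2-KI RIPs, 92.8 ± 29.4 in the IgG RIPs and 113 ± 21.7 in the inputs (SD, n = 3), at 2.13 ± 0.28 and 1.84 ± 0.28 on the log2 scale. *Dnajc5*, a vesicle chaperone, was at 2.10 ± 0.15 and 1.63 ± 0.15. *Syngr1* and *Synpr*, relatives of synaptophysin and its family, were at 1.56 ± 0.11 and 1.33 ± 0.11 and at 2.13 ± 0.14 and 1.02 ± 0.13. *Ap2s1*, a subunit of the clathrin adaptor AP-2, was at 2.16 ± 0.18 and 1.0 ± 0.17, *Rab3c*, a vesicle GTPase, at 1.12 ± 0.18 and 1.75 ± 0.18, and *Sypl* at 1.48 ± 0.18 and 1.20 ± 0.18. The 3 genes lower than both were *Sh3gl1*, an endophilin (-2.07 ± 0.33 and -2.00 ± 0.32), *Lin7b*, a presynaptic scaffold protein (-1.70 ± 0.30 and -1.62 ± 0.29), and *Vti1b*, an endosomal SNARE (-1.31 ± 0.28 and -1.03 ± 0.28). Also higher than both were *Stxbp6*, a syntaxin-binding protein, at 1.39 over IgG RIP and 1.36 over input, *Syt14* at 1.20 and 1.21, *Lin7c*, a relative of *Lin7b*, at 1.38 and 1.12, and *Sh3gl2*, a relative of *Sh3gl1*, at 1.02 and 1.01.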

How the data were processed

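RNA was measured in 9 libraries, which comprised input, IgG RIP and CELF2-KI RIP with 3 replicates each. Per the labels and the study's methods, rRNA was depleted, directional libraries were made, and reads were checked with FastQC 0.11.9, trimmed with fastp 0.23.4, cleared of rRNA with Ribodetector 0.3.1 and quantified with kallisto 0.51.1. The authors deposited estimated counts for 107384 transcripts, with no scaling for depth or length and replicates kept separate. The submitters' processing notes name mm10, edgeR 4.4.0 and DESeq2 1.46.0, and the methods name an Ensembl transcriptome, although the rows carry RefSeq accessions. No column was left out (0 columns).

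Accessions were matched without their version to a RefSeq gene table of GRCm38.p6 (86722 rows), which also gave positions and spans. The estimated counts of a gene's transcripts were added up and rounded. Of the protein-coding genes, those that reached 0.5 CPM in 3 or more libraries entered 1 edgeR 4.0.16 quasi-likelihood fit (R 4.3.3, limma 3.58.1) with TMM factors and a mean per condition, with the Benjamini-Hochberg FDR taken over all 15267 genes. TMM factors were 0.771 to 0.878 in CELF2-KI RIP, 1.05 to 1.08 in IgG RIP and 1.12 to 1.16 in input, and the common biological coefficient of variation was 0.221. DESeq2 1.42.0, other scalings and filters, curated transcripts only, a test against 2-fold and the omission of each library served as alternatives. Ratios of related genes were tested in Python 3.11.15 with scipy 1.17.1. The fit and the ratio test were checked on simulated data. Total counts were 15919600 to 20052716 in CELF2-KI RIP, 17365561 to 28773130 in IgG RIP and 69125700 to 105116427 in input. Reads carry no molecular identifiers. SEs and SDs include the variation between replicates, and the floor covers counting error only.

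The 44 genes, the wider vesicle cycle list, the markers and the pairs were chosen with earlier results of these data known. 1 entry of the wider list, a second name for *Snap91*, was dropped. Values in every library are given for genes called against at least 1 control and for the gene with the highest mean CPM of each role, and up to 8 genes of the wider list per direction were to be named by the size of their change. That rule did not say in which comparison, and the choice changes which 8 are named, so the higher genes are given without ranking, a decision made after their values were seen; 1 of the 12 is not reported here.

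Replicates differed by more than sampling noise (chi-square per gene 12.2 to 46.0). Deviations from the condition mean, over 11534 genes, correlated between same-numbered libraries at 0.185, 0.122 and 0.213 for CELF2-KI RIP with input, -0.070, 0.038 and -0.011 for CELF2-KI RIP with IgG RIP, and 0.087, 0.064 and 0.008 for IgG RIP with input. Correlations between differently numbered libraries were not computed, so whether the numbers pair CELF2-KI RIP with input was not settled. The main fit used no pairing, and a fit with the replicate number as a block was run as an alternative.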

Additional observations from a re-analysis of the deposited data

How the results depend on the processing

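The calls of *Syn1* and *Napa* as lower than both controls held under every alternative run except edgeR's glmTreat against 2-fold, which kept *Napa* alone. The 9 genes higher than both depended on scaling and threshold, and the cause was not tested. Total counts gave 9 genes higher over IgG RIP, 2 over input and 0 over both, although 16 were higher than both at an unadjusted p under 0.05. Upper-quartile factors gave 9 over input and 4 over both. TMM over coding and noncoding genes together gave 4 over input and 2 over both, with 1 gene higher and 6 lower in IgG RIP over input. With only the 2 conditions compared in the fit, 9 were higher over input and 5 over both. glmTreat called 7 higher and 1 lower over IgG RIP, 2 higher over input, 0 higher than both (5 at an unadjusted p under 0.05) and 1 lower than both, and for IgG RIP over input 0 higher (0 at an unadjusted p under 0.05) and 1 lower. Curated transcripts gave 1 lower in IgG RIP over input, kept 9 higher than both with *Rims3* and *Syt6* replaced by *Syt11* and *Snap91*, and turned *Rims3* over IgG RIP to -0.20. Without IgG RIP 1 and 2, which assumes that the remaining library varies like the other groups, 5 were higher than both and 1 was higher in IgG RIP over input.

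Leaving out each library in turn gave 7 to 10 genes higher than both and 2 lower, 18 to 22 higher and 2 lower over IgG RIP, 10 to 14 higher and 2 lower over input, and 2 to 3 higher and 2 to 4 lower in IgG RIP over input. The count of 7 came without CELF2-KI RIP 2. With the replicate block, 20 genes were higher over IgG RIP, *Snap91* being the one lost, and no other call changed. For the pairs of related genes, 0 passed an adjusted p of 0.05 in any alternative run, but the exact test can pass it only where a large part of the pairs is fully separated, and not at all with 2 CELF2-KI RIP libraries or against IgG RIP alone, so this says nothing about their stability. Depth limits the genes with few counts, such as *Vamp4*, *Syt2* and *Syt17*, most in IgG RIP 2, the shallowest library.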
